A study of Rattus norvegicus with 6 samples.

Results

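In the lungs of rats given monocrotaline, 143 circular RNAs had a brighter array signal in each of 3 samples than in any of 3 saline samples, although 2 of the monocrotaline arrays were the dimmest of the study. These 143 circRNAs were chosen by the measured values themselves. Each lay well above background on all 6 arrays, by the mark the scanner software gives to a spot, and the lowest of its 3 monocrotaline (MCT) signals exceeded the highest of its 3 saline signals with no scaling between arrays. Of 14145 circRNAs on the array, 7325 were well above background on all 6 arrays, and 148 of these passed. The selection left out 7 further circRNAs by name, of which 5 would have passed and 2 would not, which gave the 143. Because the comparison of MCT with saline chose them, their differences are a description and carry no test.

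The samples were lung tissue of male rats labelled as 6 weeks old, with no strain given and no word on whether that is the age at injection. The MCT group received 1 intraperitoneal injection of monocrotaline at 60 mg per kg, and the control group received saline, described as the solvent in an equal volume. Lungs were perfused and taken after 28 days, with 3 samples in each group and 1 array per sample. Monocrotaline is a plant alkaloid whose liver metabolites injure lung vessels, and the injected rat is a widely used model of pulmonary arterial hypertension. It is a model of toxic injury with organ effects beyond the pulmonary arteries. The labels do not state that the samples of a group came from separate animals, so the spread between them may be partly technical. The study's title asks for the circRNA signature of this model. Whole lung was measured, and more cells of a type and more RNA per cell cannot be told apart. None of 24 marker genes listed for lung epithelium, endothelium, smooth muscle, fibroblasts, immune cells and blood is among the named linear transcripts of the array, so the tissue label could not be checked.

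A circRNA forms when the spliceosome joins the end of an exon back to the start of the same or an earlier exon, a step called back-splicing. The closed ring has no free ends, which makes it resistant to exonucleases and often long-lived. The array rests on this property, since RNA was treated with RNase R, an enzyme that digests linear RNA, before labelling. Some circRNAs bind microRNAs or proteins, and others have no known function. The files give the members by array ID, with neither a host gene nor a sequence, so no function can be named for any of them.

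Array brightness differed between the groups and bears on each value below. The 75th percentile of the processed signal, which is background-subtracted fluorescence in scanner units, ran from 75.6 to 94.5 on the saline arrays. The MCT arrays had 41.4 (MCT 1), 95.2 (MCT 2) and 32.3 (MCT 3). No spot was saturated. Among the 7325 detected circRNAs, 148 (2.02%) lay higher on every MCT array than on every saline array, and 957 (13.1%) lay lower on every MCT array. On a single MCT array, the signal exceeded the highest saline signal for 4.20% of the detected circRNAs on MCT 1, 32.8% on MCT 2 and 8.05% on MCT 3. How far this difference in brightness enters the members' values was not tested beyond the scalings given below.

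**Figure D1:**
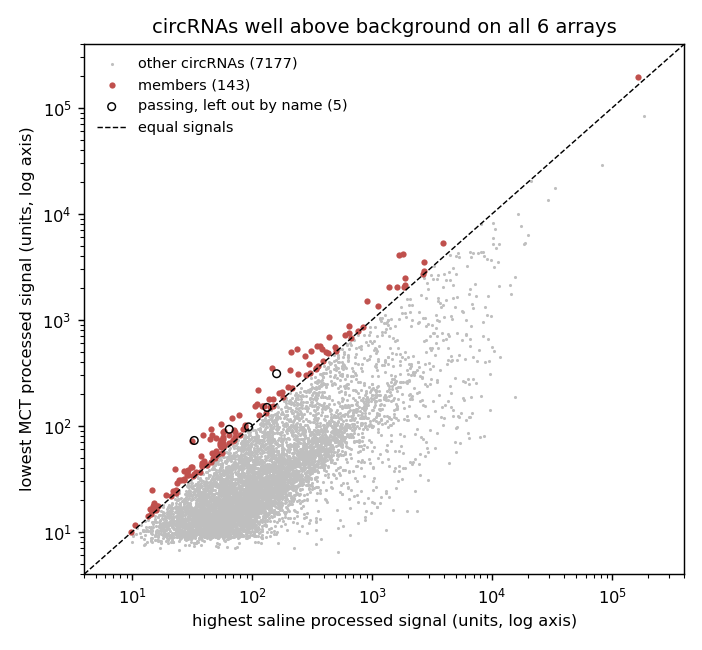
For each of the 7325 circRNAs well above background on all 6 arrays, the highest saline signal (x axis) is plotted against the lowest MCT signal (y axis), both in scanner units on log axes. The 143 members lie above the dashed line of equal signals, most of them close to it, and 5 circles mark circRNAs that passed and were left out by name.

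The gap between the groups was narrow for most members and wide for a few. The ratio of the lowest MCT to the highest saline signal had a median of 1.17, and ran from 1.001 to 2.40. It reached 2 in 8 members and 1.5 in 26, and stayed under 1.2 in 79. As a fold of the group means of log2 signals, the members stood between 1.08 and 5.18 times higher in MCT lungs, with a median of 1.69. In 52 members this fold was at least 2, and in another 52 it was under 1.5.

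ASCRPR013836 had the largest ratio, 2.40. Its processed signal was 1481, 1350 and 1688 units on saline arrays 1 to 3 and 11045, 4049 and 9267 units on MCT arrays 1 to 3. The saline signals lay close together, and MCT 2, the array as bright as the saline arrays, gave the lowest of the MCT signals. ASCRPR011000 followed almost the same course, with 1521, 1334 and 1815 units in saline and 13013, 4158 and 9461 units in MCT lungs. These were the only members whose mean signal was more than 4 times higher in MCT, 4.97 and 5.18 times. On no array did their signals differ by more than 1.18-fold. Whether they report 1 transcript was not tested.

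The other 6 members with a ratio of at least 2 were less bright. ASCRPR004661 gave 133, 139 and 148 units in saline and 394, 351 and 589 units in MCT lungs. ASCRPR004330 gave 211, 159 and 188 units in saline and 662, 495 and 552 units in MCT lungs. ASCRPR009600 gave 238, 206 and 224 units in saline and 1070, 527 and 1085 units in MCT lungs. In each of these the groups were far apart against the spread of the saline arrays, and MCT 2 was the lowest MCT array. ASCRPR008672 had 31.9, 26.1 and 28.1 units in saline against 115, 71.4 and 88.9 units in MCT lungs. ASCRPR008341 had 39.2, 31.4 and 38.8 units against 219, 81.5 and 138 units. ASCRPR000585 had 44.1, 24.9 and 45.5 units against 93.0, 92.8 and 131 units. Here too MCT 2 came lowest among the MCT arrays, in ASCRPR000585 almost level with MCT 1.

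**Figure D2:**
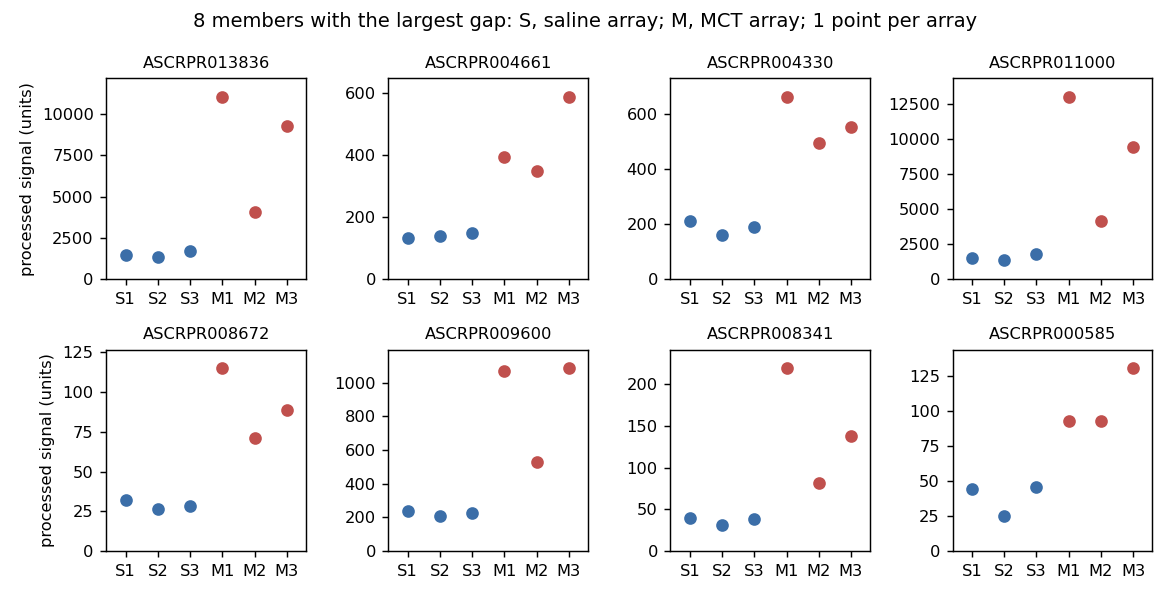
Processed signal in scanner units (y axis, from 0) of the 8 members with the largest ratio of lowest MCT to highest saline signal, 1 point per array, for saline arrays S1 to S3 and MCT arrays M1 to M3. In each panel the MCT points lie above the saline points, and M2 is the lowest MCT point.

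ASCRPR003948 ranked 1 of 14145 circRNAs by mean log2 signal over the 6 arrays. It was the brightest on each MCT array and not on the saline arrays, with 163721, 160820 and 142672 units in saline and 198019, 196681 and 273035 units in MCT lungs. Its groups did not overlap, but its mean signal was only 1.41 times higher in MCT. ASCRPR006460, ranked 47, gave 3868, 2377 and 2324 units in saline and 5253, 5334 and 7372 units in MCT lungs, where its mean was 2.13 times higher. By signal, ASCRPR011000 ranked 58 and ASCRPR013836 ranked 61. In all, 6 members were among the 100 brightest circRNAs, and 10 exceeded 1000 units on every array.

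The median member was dimmer than the median detected circRNA on each saline array. With the detected circRNAs divided into 4 equal bins by their mean saline signal, the dimmest bin (under 44.6 units) held 56 members, 3.06% of its circRNAs. The next bin held 28 (1.53%), the third 19 (1.04%) and the brightest bin, above 187 units, 40 (2.18%). Thus the members came from both ends of the signal range more often than from its middle, a count that was not tested. The bins rest on the saline signals that the selection used, and a low saline signal helps a circRNA to pass. These shares are a description only. On every array, 57 members stayed under 100 units.

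The members nearest to the threshold had groups that all but touched. ASCRPR011872 gave 667, 650 and 672 units in saline and 770, 672 and 1010.3 units in MCT lungs, a ratio of 1.001. For ASCRPR012138 the highest saline signal was 36.6 and the lowest MCT signal 36.7 units. For ASCRPR002332 these were 55.7 and 55.9 units, and for ASCRPR009062 848 and 856 units. Just outside lay ASCRPR003650, at 15.9 units both for its highest saline and its lowest MCT signal, ASCRPR005295, at 51.3 and 51.1 units, and ASCRPR006904, at 24.5 and 24.4 units. The difference between the last members and the first circRNAs outside was far smaller than the error of a spot.

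Spot error was available from 2 sources. The software's own error of a processed signal had a median of 10.2% over the members' spots. Its lowest value was 10%, so the median lay almost at the lower limit. By this error, the gap between the lowest MCT and the highest saline spot exceeded the combined error of both spots in 76 members, and 2 combined errors in 35. The second source was independent of the members: 19 features printed in 10 or 20 spots each were well above background in every spot on all 6 arrays. The median SD of log2 signals between spots of 1 feature was 0.057 to 0.093 on 5 of the arrays and 0.13 on MCT 1. With the SD of MCT 1, 2 SD of a difference between 2 spots is a ratio of 1.28, which 44 members exceeded. Each circRNA was printed in 1 spot, so its own spot error was not measured. Both errors describe the spot alone, and say nothing of the spread between samples. One member had no usable MCT spot: for ASCRPR006526 all 3 MCT spots carried the software's mark for an outlier, and it has no scaled difference below.

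MCT 2 was most often the limiting array. It gave the lowest MCT signal in 81 members, MCT 3 in 35 and MCT 1 in 27. The highest MCT signal came from MCT 1 in 66 members, MCT 3 in 53 and MCT 2 in 24. Among the saline arrays, the highest signal came from saline 1 in 70 members, saline 3 in 55 and saline 2 in 18. A signal at least 2-fold above the saline mean was seen in 63 members on MCT 1, 25 on MCT 2 and 53 on MCT 3.

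Against the saline mean, the members' median unscaled fold was similar on the 3 MCT arrays, while that of all detected circRNAs was not. The median fold of a member was 1.83 on MCT 1, 1.47 on MCT 2 and 1.76 on MCT 3. Over all 7325 detected circRNAs the medians were 0.507, 1.14 and 0.370. In 32 members (22.4%) the 3 MCT signals lay within 1.2-fold of each other, as they did in 2.33% of the detected circRNAs. The median SD of the unscaled log2 signals over the MCT arrays was 0.29 for members and 0.91 for all detected circRNAs, and over the saline arrays 0.21 and 0.37. The selection favours circRNAs that stay bright on dim arrays, so a smaller MCT spread than that of other circRNAs follows in part from it. It also held each member above its saline signals on every MCT array. The members' higher medians on MCT 1 and MCT 3 follow from that. In ASCRPR013999 and ASCRPR013705 all 6 signals lay within 1.2-fold. The former gave 306, 304 and 289 units in saline and 315, 331 and 324 units in MCT lungs, and the latter 40.3 to 41.8 units in saline and 42.7 to 46.6 units in MCT lungs.

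Scaling to a common 75th percentile, which lifts the dim MCT arrays, widened the differences and made the members' values on the MCT arrays unequal. On this scale 0 is the array's own 75th percentile, in log2 units. The median difference of the members from the saline mean was 1.97 on MCT 1, 0.43 on MCT 2 and 2.25 on MCT 3, beside 0.10, 0.065 and 0.0016 for all detected circRNAs. Over the 3 arrays together, the members' median difference was 1.56, between 0.91 and 3.17, beside 0.060 for the detected circRNAs. All 142 members with a scaled value were higher in MCT on this scale, 139 of them at least 2-fold and 30 at least 4-fold. Scaling added the same amount to each member's difference of group means, and the selection had already set that difference above 0. Nothing is read from these counts. The median SD over MCT arrays became 0.98 for members and 0.49 for all detected circRNAs. The saline level of ASCRPR013836 was 4.10 ± 0.10 (SD, n = 3) and its MCT level 7.21 ± 1.56 (SD, n = 3), which differ by 3.11 ± 0.64 (SE). For ASCRPR003948 the levels were 10.79 ± 0.25 (SD, n = 3) and 12.09 ± 1.02 (SD, n = 3), which differ by 1.30 ± 0.49 (SE). In both, the saline arrays lay close together and the MCT arrays lay far apart. Each SE of a difference is that of the limma fit below, which draws a circRNA's variance towards that of all tested. It is smaller here than the SDs alone would give.

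**Figure D3:**
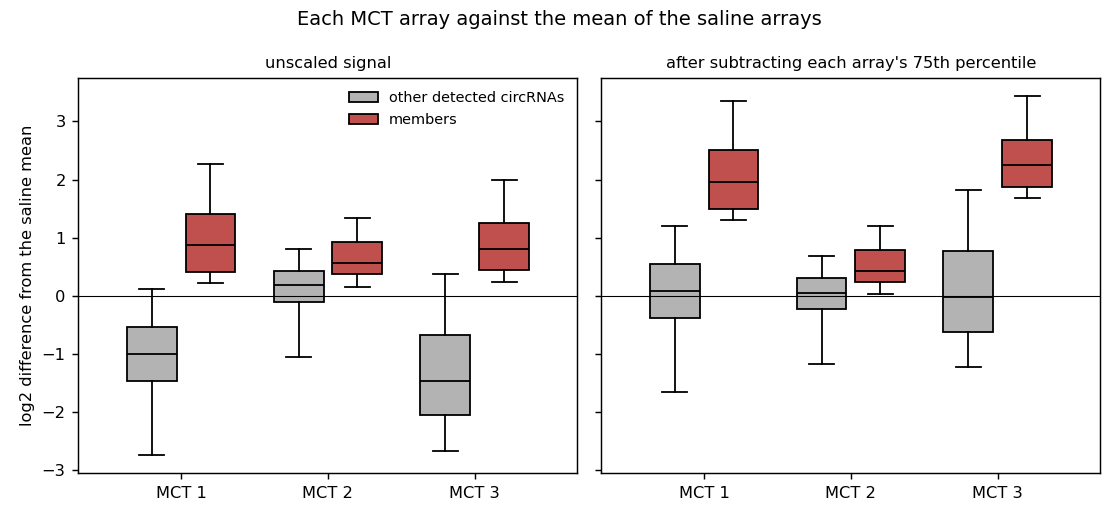
Log2 difference of each MCT array from the mean of the saline arrays (y axis), for the 143 members (red) and the other detected circRNAs (grey), without scaling on the left and after subtracting each array's 75th percentile on the right. Boxes span the quartiles with the median as a line, and whiskers reach from the 5th to the 95th percentile. Unscaled member medians are alike on the 3 arrays, and scaled ones are 1.97, 0.43 and 2.25.

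Ranks within an array show where the members stood on it. On MCT 1 and MCT 3 a high rank is largely set by the selection, since few circRNAs exceeded their saline signals on these dim arrays. The selection favours a high rank on MCT 2 too. It required a signal above every saline signal, which 32.8% of the detected circRNAs had on MCT 2. Nothing is read from the counts of higher ranks below. The median member stood at percentile 33.1, 40.6 and 31.5 of the detected circRNAs on saline arrays 1 to 3. On MCT 1 it stood at 82.0, on MCT 2 at 50.5 and on MCT 3 at 83.2. Members at or above the 75th percentile of an array numbered 35 to 42 in saline, and 85, 47 and 93 on MCT arrays 1 to 3. All 143 were ranked higher on MCT 1 and on MCT 3 than on any saline array, and 108 were on MCT 2. Of all detected circRNAs, 36.8% were ranked higher on MCT 1, 35.0% on MCT 3 and 28.0% on MCT 2. ASCRPR008672, for example, stood at percentile 13.7, 12.8 and 9.88 in saline and at 81.0, 39.2 and 78.5 on MCT arrays 1 to 3. ASCRPR000585 stood at 23.0, 11.7 and 23.2 in saline and at 76.4, 50.7 and 84.8 in MCT lungs.

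**Figure D4:**
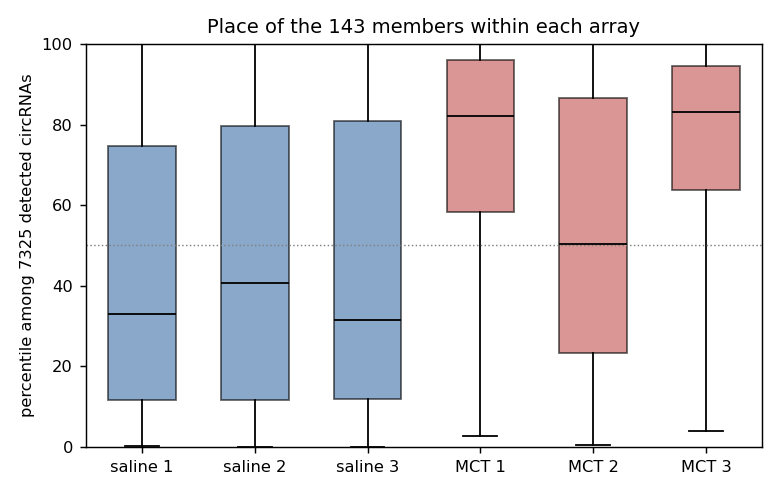
Percentile of each of the 143 members among the 7325 detected circRNAs (y axis) on each array, as boxes of the quartiles with the median as a line and whiskers to the lowest and highest member. Medians lie between 31.5 and 40.6 on the saline arrays, at 50.5 on MCT 2, and at 82.0 and 83.2 on MCT 1 and MCT 3.

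Not all members stayed separated once arrays were scaled. The members had been chosen for groups without overlap in the same signals. A larger share of them than of all detected circRNAs therefore follows in large part from the selection. With the 75th percentile subtracted, the groups did not overlap in 111 of the 143 members, where 9.61% of the detected circRNAs lay higher on every MCT array. Marked spots were kept in these counts, as in the selection. Without ASCRPR006526 the number was 110 of 142. It was 111 with quantile normalization (10.6% of the detected), 110 with normexp background correction and quantile normalization (9.99%), and 110 in the authors' processed values (10.3%). In 100 members the groups did not overlap under any of these or without scaling. All 8 members with the widest gap were among the 100. Over all detected circRNAs the count was 105 (1.43%). By construction it holds only members and circRNAs left out by name, so it is no background for the 100. ASCRPR003948 overlapped after subtraction of the 75th percentile and not under the other 3, and ASCRPR011872 and ASCRPR013999 overlapped under each of the 4.

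By limma across 11280 circRNAs, no circRNA was called higher in MCT lungs at an adjusted p of 0.05 (0%), and so none of the 142 members tested. At an unadjusted p of 0.05, 137 members passed, where 553 (4.90%) of all tested did; nothing is read from this share, since the same contrast chose the members. Some members were called without MCT 2 or with slide in the fit, and the share of all circRNAs called higher stands beside each count. Without MCT 2, 73 were called (0.833%). Slide here stands for the scan date in the file headers, and whether it marks a physical slide was not checked. By this date, slide 1 held the 3 saline arrays and MCT 1, and slide 2 the other MCT arrays. With slide as a block 5 members were called (0.106%), and within slide 1 alone 52 (0.629%). Both rest on the difference of MCT 1 alone from saline, whose median over the members was 1.97, and assume that MCT 1 varies as the other arrays do.

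A few members had nearly the same signals as another member. In 15 pairs the signals differed by less than 1.2-fold on each of the 6 arrays. The pair with the highest signals after ASCRPR013836 and ASCRPR011000 was ASCRPR008461 and ASCRPR008462, chosen here after their values were seen. The former gave 1133, 1578 and 1855 units in saline and 3420, 2048 and 4083 units in MCT lungs. The latter gave 1206, 1762 and 1881 units in saline and 3844, 2110.3 and 4261 units in MCT lungs. Their order from array to array was the same, and their signals differed by at most 1.12-fold. These IDs are consecutive, as in 4 pairs of members, but in the other 3 pairs the signals differed by at least 1.60-fold on each array. Whether members of a pair share sequence was not tested.

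The place of the spots on the array was not used in the selection. Each array has 192 rows and 82 columns, in the same layout. Of 522 detected circRNAs in the last 6 columns, 21 (4.02%) were members, against 122 of 6803 (1.79%) elsewhere. In the other bands of columns the share ran from 1.59% to 2.22%, and in 8 bands of rows from 1.75% to 2.38%. The window of 6 columns was picked after the counts were seen. The 21 include ASCRPR003948, in column 82, and ASCRPR008341 in column 80. Over all detected circRNAs of the last 6 columns, the median scaled difference was 0.090, within the 0.029 to 0.096 of the other bands. Features printed in several spots gave a measure on other probes: their spots in the last 6 columns deviated from their other spots by -0.12 ± 0.051 (SE, 22 spots) in log2 on MCT 1, -0.045 ± 0.014 (SE, 23 spots) on MCT 2 and -0.0076 ± 0.026 (SE, 22 spots) on MCT 3. On the saline arrays these deviations lay between -0.048 and -0.0047. The part of the spot's place in the members' values was not tested. Without the 21, the members' median scaled difference was 1.56 as before.

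**Figure D5:**
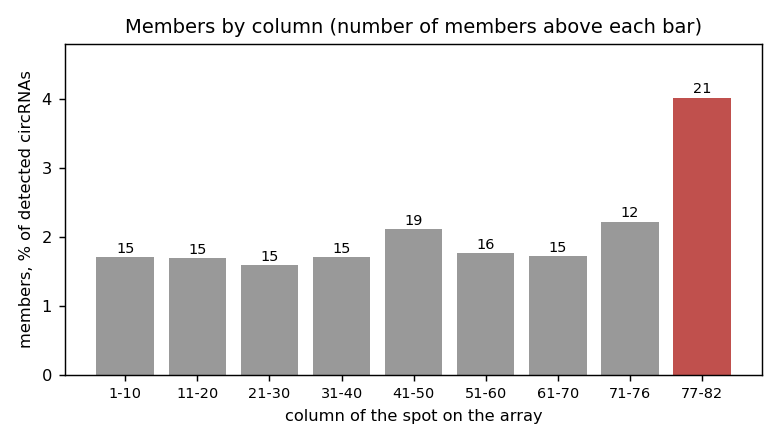
Share of the detected circRNAs that are members (y axis, percent) by the column of their spot on the array (x axis, in bands), with the number of members above each bar. The last 6 columns hold 21 members, 4.02% of their detected circRNAs, and the other bands lie between 1.59% and 2.22%.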

How the data were processed

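RNA depleted of linear transcripts by RNase R was amplified from random primers into Cy3-labelled cRNA, per the labels' protocols, and hybridised to 1-colour Arraystar arrays. Per the file headers, the scanner files were extracted with version 11.0.1.1 of Agilent Feature Extraction; the deposited intensity is a processed signal, background-subtracted and not scaled between arrays. The authors' deposited table holds log2 values whose column medians lie between 6.06 and 6.08 with a common maximum of 17.6; its background treatment is not given in the sources used here, and it served as an alternative only. No per-sample column was left without a sample (0).

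Members were chosen on the processed signal as deposited. For scaled values, outlier-marked and control spots were dropped, spots of 1 feature averaged, and each array's 75th percentile over 14227 features subtracted from log2 signals. The limma fit (version 3.58.1 in R 4.3.3, lmFit then eBayes on the 6 arrays without a covariate) took circRNAs that at least 3 arrays measured well above background, and adjusted p-values by Benjamini-Hochberg over all of them. With 3 arrays per group, their number limits the precision.

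The members, lists and tests were chosen with earlier results of these data known. Named were the 8 members with the largest ratio of lowest MCT to highest saline signal, the 4 brightest, the 4 with the smallest ratio and the 3 circRNAs just outside; any others were chosen after their values were seen. Alternatives were other scalings (none, quantile, a percentile over detected features, normexp with an offset of 50 on the median signal, the authors' values), other marks and filters, a margin of 1.2, a trended and robust prior, slide and replicate blocks, and leaving out each array. Lists of host genes were not used, as the files do not pair circRNAs with genes.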

Additional observations from a re-analysis of the deposited data

How the results depend on the processing

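The number of circRNAs higher on every MCT array, 148 without scaling, depended most on the scaling. It was 704 with the 75th percentile subtracted, 779 with quantile normalization, 732 with normexp and quantile normalization and 757 in the authors' processed values. It was 607 with no mark of detection required, counted over all 14145 circRNAs and not over the 7325 detected. With a margin of 1.2 it was 67, and within slide 1, where only MCT 1 is compared, 329. Leaving out 1 array gave 186 to 282, by construction never fewer than with all arrays: 264 without saline 1, 282 without MCT 1 and 252 without MCT 3. The positive and significant mark, which admits another set of circRNAs and for which no share is given, gave 182. Leaving out marked spots, added after seeing the data, gave 147. The members' median log2 difference, 1.56, was 0.76 without scaling, 0.92 with normexp and quantile normalization and 1.97 with slide as a block or within slide 1. This median stayed above 0 in each setting and between 1.24 and 2.06 when 1 array was left out. The selection fixed its sign without scaling, with the 75th percentile subtracted and with 1 array left out. Nothing is read from the sign. The members called by limma, 0, became 5 with slide as a block, 52 within slide 1 and 9 with the replicate block, where 0.160% of all 11280 tested were called higher, and lay between 0 and 73 when 1 array was left out, the highest without MCT 2. Deviations of same-numbered arrays from their group means correlated at -0.23, -0.36 and -0.45 over 11272 circRNAs. Arrays of different numbers were not compared, so whether the replicate numbers pair the samples was not settled. For the 14 named members, 179 of 196 values under alternatives moved by less than 1 SD, 17 moved further and 0 changed sign. The SD is that of the member's own scaled values within groups, and on this scale the MCT arrays lie far apart. Nothing is read from the 0, since the selection fixed the sign in most of these settings. The 17 all came from other treatments of the signal, most of them from no scaling, the setting in which the members were chosen. The 179 include the replicate block, which leaves each difference unchanged, and the percentile over detected features, which hardly alters it. Slide as a block and within slide 1 give the same difference and are both counted. Signal over background limits the dim members, of which 57 stayed under 100 units. Except where a setting's construction shows it, the cause was not tested.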
